A study of Homo sapiens with 2 samples.

Results

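The cytosolic ribosomal protein genes were taken as the listed genes whose symbol is RPL or RPS followed by a number, with the letters that mark related genes, together with RPLP0, RPLP1, RPLP2 and RPSA. The pattern matched 84 of the 12014 listed genes. RPS6KL1, which is named for a kinase, was left out, and 83 genes remained, 32 of the small subunit and 51 of the large subunit. Of these, 77 encode the core ribosomal proteins and 6 are paralogs, which are expressed copies that differ in sequence from a core gene (RPL7L1, RPL22L1, RPL26L1, RPL36AL, RPL39L and RPS27L). No member lies on chromosome Y. All 83 genes passed the filter of a mean of at least 1 FPKM, which 10702 genes in all passed.

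The RNA came from ACHN, an established cell line from a human renal cell carcinoma. A lentivirus delivered an shRNA that targets KIAA1429 (shKIAA1429) to one culture and a control hairpin (shNC) to the other, and stable lines were selected with puromycin. KIAA1429, now called VIRMA, is the scaffold protein of the complex that writes m6A on mRNA. With 1 library per group, no difference has a check against replicates, and no p-values are given. The labels call the treated cells a knockout, whereas the study's methods describe a knockdown. Neither names which of its KIAA1429 shRNAs was sequenced, and the time between infection and RNA extraction is not given in the sources used here. All 8 renal and epithelial markers examined were listed in both libraries, and 1 of 8 markers of other cell types was listed (CD68, at 3.87 and 2.06 FPKM). VIRMA stood at 3.92 FPKM in the control library and at 3.22 FPKM in the library labelled shKIAA1429 (82.1% of the control, a log2 change of -0.22 on the scale defined below). With each library rescaled to the same sum it was at 93.2% of the control, so these values do not clearly show a lower VIRMA level. The study reported reduced KIAA1429 mRNA and protein in its ACHN knockdown cells, by RT-qPCR and western blot.

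Each ribosome joins a small subunit, which reads the mRNA, to a large subunit, which forms the peptide bond, and the ribosomal proteins fold and stabilise the rRNA of both. Their mRNAs are among the most abundant in dividing cells, and the proteins are needed in nearly equal numbers, so their genes are known to be regulated together. Many of these mRNAs begin with C and an unbroken run of C and U, the terminal oligopyrimidine (TOP) tract, through which LARP1 and the mTOR pathway adjust their translation and stability.

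The starts of 10 members are shown first, since this tract is the best known sequence feature they share. The windows are from RefSeq on GRCh38.p14, on the strand of the gene, with 20 bases before the annotated start and 15 bases from it. Capitals mark a run of at least 5 C or T that opens with C at the start itself. The 4 genes with the lowest change come first, then the 3 with the highest change, then the most abundant member of each subunit (RPL41 and RPS27) and RPS6, whose protein is the substrate of the S6 kinases.
RPL35A, chr3:197950170-197950204, plus strand: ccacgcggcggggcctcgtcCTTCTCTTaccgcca
RPS24, chr10:78033843-78033877, plus strand: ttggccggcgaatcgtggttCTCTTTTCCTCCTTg
RPS29, chr14:49598696-49598730, minus strand: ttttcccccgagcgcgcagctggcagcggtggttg
RPL12, chr9:127451392-127451426, minus strand: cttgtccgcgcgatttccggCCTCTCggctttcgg
RPL26L1, chr5:172958709-172958743, plus strand: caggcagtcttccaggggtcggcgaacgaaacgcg
RPL36AL, chr14:49620612-49620646, minus strand: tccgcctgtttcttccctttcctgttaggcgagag
RPL6, chr12:112411428-112411462, minus strand: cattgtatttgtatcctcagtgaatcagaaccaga
RPL41, chr12:56116613-56116647, plus strand: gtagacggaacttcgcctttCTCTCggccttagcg
RPS27, chr1:153990742-153990776, plus strand: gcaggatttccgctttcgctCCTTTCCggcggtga
RPS6, chr9:19380222-19380256, minus strand: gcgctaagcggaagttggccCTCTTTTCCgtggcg
The run is present in RPL35A, RPS24, RPL12, RPL41, RPS27 and RPS6, and absent from the annotated starts of RPS29, RPL26L1, RPL36AL and RPL6. An annotated start need not be the start used in these cells, and no start was measured here.

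In both libraries the members were among the most abundant mRNAs. FPKM corrects the number of fragments for gene length and for library size, so levels of different genes can be compared per length. Of the 100 listed genes with the highest FPKM, 34 were members with shNC and 33 with shKIAA1429. The median level of the 83 genes was 160 FPKM in the control and 133 FPKM in the shKIAA1429 library. Of the 77 core genes, 53 lay between 100 and 400 FPKM with shNC and 51 with shKIAA1429. Only RPS29, RPS28 and RPL14 of the core genes were under 50 FPKM, in both libraries. The longest annotated transcripts of RPS29 and RPL14 have 7062 and 7072 bases, and that of RPS28 has 1326, beside a median of 1171 for the members. Whether length affects these 3 levels was not tested. The plot of levels in both libraries shows this band and the genes above and below it.

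**Figure D1:**
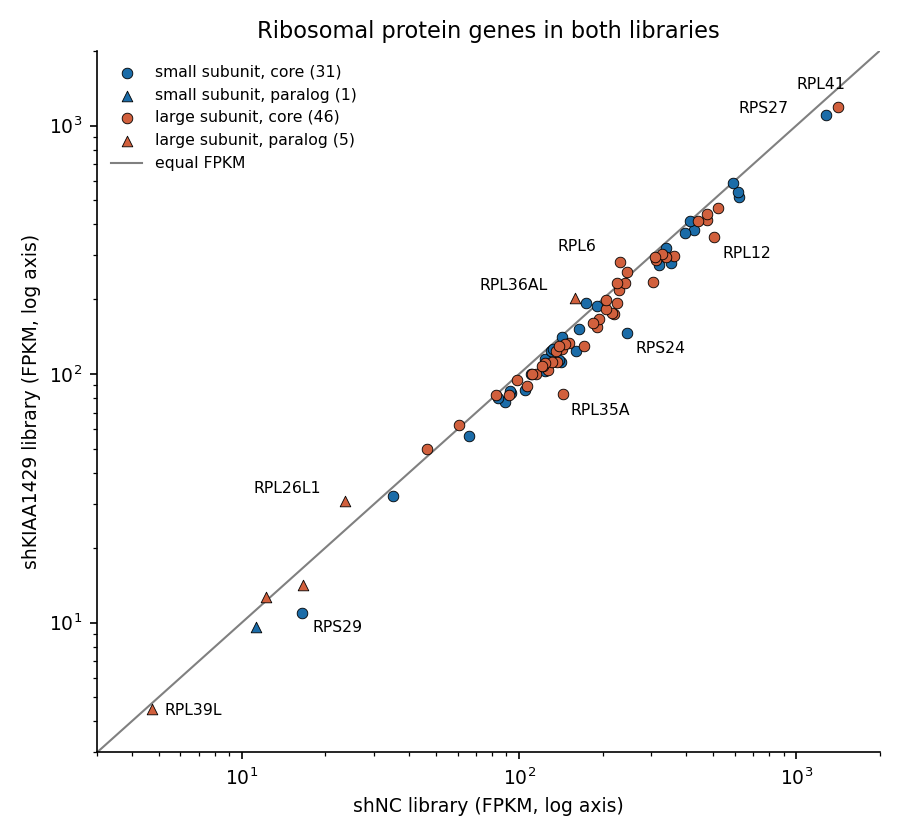
Level of each of the 83 ribosomal protein genes in the shNC library (x axis) and the shKIAA1429 library (y axis), in FPKM on log axes, with 1 point per gene, circles for core genes and triangles for paralogs. Most points lie just below the line of equal FPKM, RPL35A and RPS24 lie farthest below it among the abundant genes, and RPL36AL, RPL26L1 and RPL6 lie above it.

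RPL41, which encodes the smallest ribosomal protein, was the most abundant member, at 1413 FPKM with shNC and 1185 FPKM with shKIAA1429. RPS27, a zinc finger protein of the small subunit, followed at 1279 and 1107 FPKM. These 2 genes together gave 14.0% of the summed FPKM of the members with shNC and 13.4% with shKIAA1429, and the 10 most abundant gave 36.0% and 35.6%. Next in mean level was RPS2, which lines the mRNA entry of the small subunit, at 589 and 586 FPKM, and RPS12 had 616 and 542 FPKM. RPL13A, known also for a role in silencing inflammatory mRNAs, stood at 521 and 465 FPKM. RPL23A, to which the signal recognition particle docks at the exit of the peptide tunnel, stood at 475 and 442 FPKM. RPL19 had 476 and 418 FPKM, RPL12 506 and 355 FPKM and RPL11 443 and 414 FPKM. On the deposited scale all of the 10 most abundant members were lower in the shKIAA1429 library, RPS2 at 99.5% of the control. The order of levels was nearly the same in both libraries, with a Spearman correlation of 0.98 across the 83 genes, beside 0.95 across all genes tested. In the ranking of the 83 genes by level, 22 kept their rank and 64 moved by at most 3 places. RPL35A moved farthest, by 24 places, from rank 45 to rank 69. Members with longer annotated transcripts had lower FPKM, with a Spearman correlation of -0.52 across the 83 genes, and -0.20 across 10644 genes tested that had a length. Genes of one library share its depth and composition, so these correlations are descriptions.

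Relative to the control, the ribosomal protein genes were lower as a group by a small amount, and most of them by about the same amount. The change of a gene is given as a log2 ratio, (FPKM + 1) in the shKIAA1429 library divided by (FPKM + 1) in the control library, which shrinks the changes of weakly expressed genes. Of the 83 genes, 73 were lower, where 42.7% of all genes tested were lower, and 10 were higher, where 57.3% of all genes tested were higher. The median log2 change was -0.16 for the members and 0.06 for all genes tested. The interquartile range of the members was -0.25 to -0.07, and that of all genes tested was -0.15 to 0.27. Of the 83 genes, 77 lay below the median of all genes tested. In bulk RNA, a smaller number of expressing cells and less RNA per cell cannot be told apart.

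The direction depended on the scaling. Scaling shifts all genes by nearly the same amount, so it cannot test the position of the members below other genes. The 13 mitochondrially encoded genes took 42.2% of the summed FPKM in the control and 34.6% in the shKIAA1429 library, while nuclear genes summed to 163587 and 163171 FPKM. With each library rescaled to a sum of 1000000, the median of all genes tested moved up by 0.18 to 0.24. The median of the members became 0.02. Of the 83 genes, 48 were then higher and 35 lower, where 25.4% of all genes tested were lower. Changes of the members between about -0.18 and 0 thus turn positive on that scale, and directions given below are those of the deposited FPKM. On the rescaled sum, as on the deposited scale, 77 of the 83 genes lay below the median of all genes tested, a count that a common shift hardly changes. Together the 83 genes summed to 19249 and 17114 FPKM, or 88.9% of the control. That is 6.80% and 6.86% of all listed FPKM, and 11.8% and 10.5% of the FPKM of genes not encoded in mitochondria. Changes also varied with GC content and transcript length. Between GC content and change, the Spearman correlation was -0.30 across 10644 genes tested and -0.23 across the members. Between transcript length and change, it was 0.19 across those genes and -0.06 across the members. With the trend in GC content and length removed, the median of the members was -0.08, beside 0.06 for all genes. Of the members, 60 were lower, where 41.8% of all genes were, and 67 lay below the median of all genes. The distance between both medians was then -0.13, in place of -0.22.

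**Figure D2:**
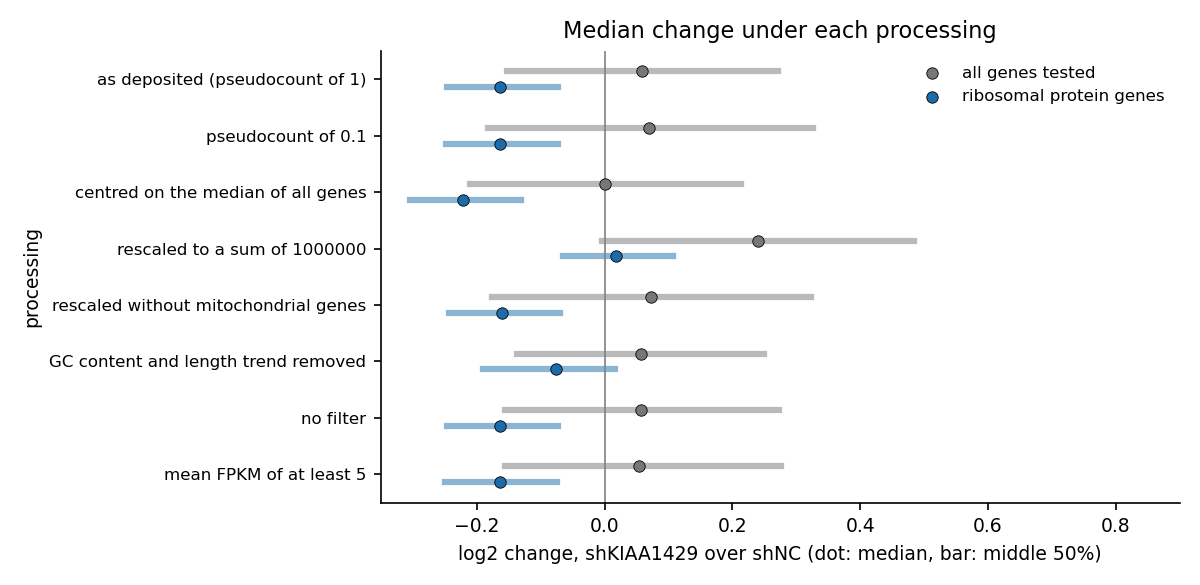
Median (dot) and interquartile range (bar) of the log2 change of all genes tested (grey) and of the ribosomal protein genes (blue), with 1 pair of rows per processing. The median of the members lies below that of all genes in each pair, and their median passes 0, to 0.02, only with libraries rescaled to a sum of 1000000. Rescaling and centring shift both medians of a pair nearly alike, so they cannot test the distance between them.

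Abundance was compared as well, because few other genes reach these levels. Among members with a mean of at least 100 FPKM, 58 of 64 were lower and the median was -0.17, and among other nuclear genes above that level 82 of 142 were lower and the median was -0.05. Above 200 FPKM the medians were nearly equal, at -0.11 for 29 members and -0.10 for 49 other nuclear genes, of which 25 and 35 were lower. The members were more alike than the others, with a distance between quartiles of 0.17 against 0.39 above 100 FPKM, and of 0.16 against 0.28 above 200 FPKM. Over all levels, 89.2% of the members lay within 0.25 of their own median, against 56.8% of all genes tested around theirs.

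No member reached a log2 change of 1.5 in size. The study applied a limit of 1.5 to log2 fold changes from DESeq2, together with a limit on the p-value. Here it was applied alone, to the log2 ratio of FPKM + 1. At that limit, 0 of the 83 genes were lower, where 0.252% of all genes tested were, and 0 were higher, where 0.383% were. At a limit of 0.5, 4 of the 83 genes were lower, which is 4.82% beside 6.12% of all genes tested, and 0 were higher, beside 9.9% of all genes tested. The share of strongly lower genes among the members was therefore near the background. Changes of at most 0.1 in size were seen in 22 members, which is near the 24.9% of all genes tested, and 21 members were below -0.25, where 17.1% of all genes tested were. The plot of changes in rank order shows a gradual slope and a few genes at each end.

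**Figure D3:**
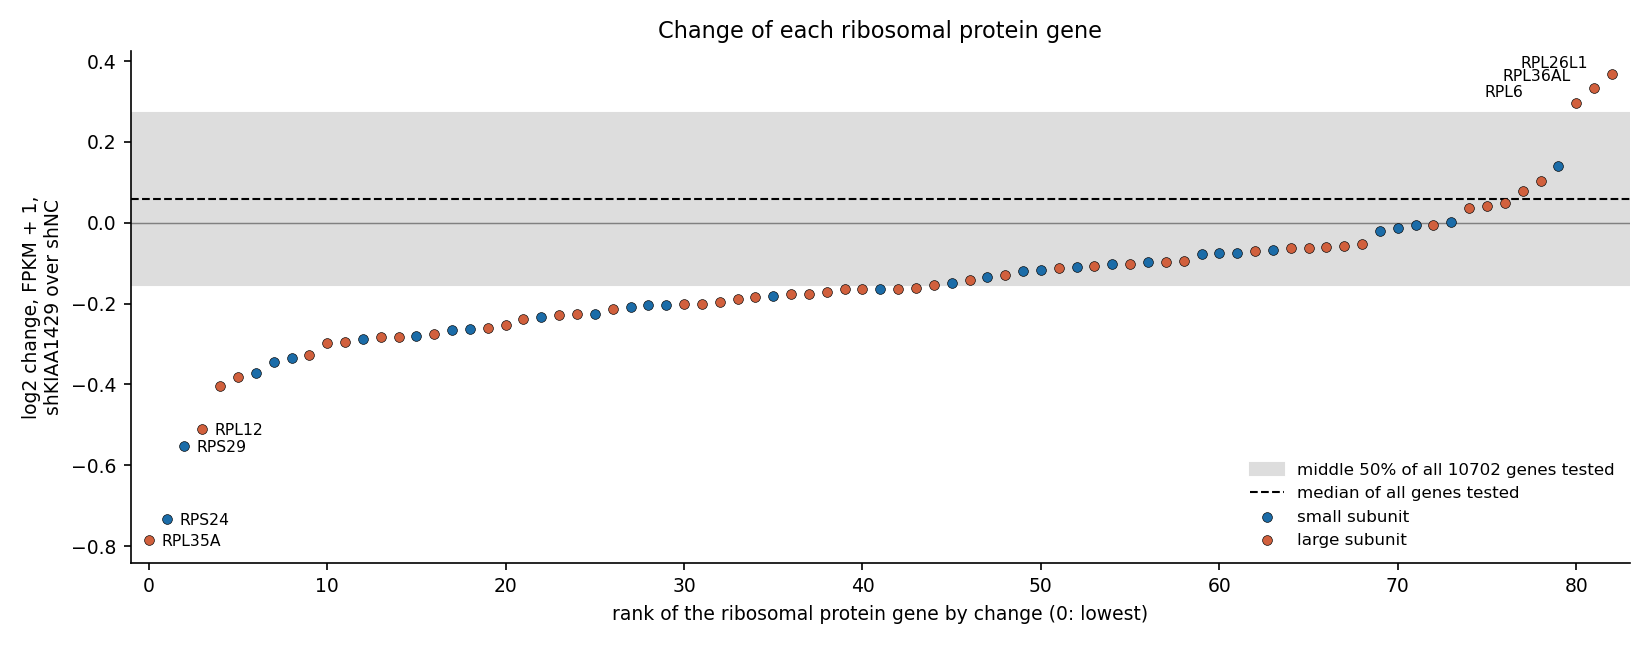
Log2 change of each of the 83 ribosomal protein genes (y axis) by rank of change (x axis), coloured by subunit, with the median of all genes tested (dashed) and their interquartile range (grey band). RPL35A, RPS24, RPS29 and RPL12 lie below -0.5 at the left, RPL6, RPL36AL and RPL26L1 lie above 0.25 at the right, and the rest form a slope between these groups.

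RPL35A, a large subunit protein mutated in Diamond-Blackfan anaemia, had the lowest change. The gene spans 197676858 to 197683481 on the plus strand of chromosome 3 (read as GRCh37 from the form of the positions, as for all gene spans here). It had 143 FPKM in the control and 82.9 FPKM in the shKIAA1429 library, a log2 change of -0.78. RPS24, a small subunit protein needed to process the precursor of 18S rRNA, spans 79793518 to 79816570 on the plus strand of chromosome 10. It had 245 and 147 FPKM, a log2 change of -0.73. RPS29, a zinc-binding protein in the head of the small subunit, lies on chromosome 14 from 50037702 to 50065882 on the minus strand, with 16.5 and 10.9 FPKM and a log2 change of -0.55. RPL12, at the base of the stalk that binds translation factors, lies on chromosome 9 from 130209953 to 130213684 on the minus strand, with 506 and 355 FPKM and a log2 change of -0.51. All 4 were lower under each scaling, with the smallest distances on the rescaled sum, at -0.61 for RPL35A, -0.55 for RPS24, -0.40 for RPS29 and -0.33 for RPL12. Genes further along the order stood apart from these 4. RPL3, which reaches close to the site of peptide bond formation, had 305 and 234 FPKM, and RPSA, also known as the laminin receptor, had 161 and 124 FPKM. RPS10, which lies near the mRNA entry of the small subunit, had 355 and 279 FPKM. Their log2 changes were between -0.38 and -0.34.

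At the other end, 2 of the 3 highest changes were those of paralogs. RPL26L1 spans 172385732 to 172396774 on the plus strand of chromosome 5 and had 23.6 FPKM in the control and 30.8 FPKM in the shKIAA1429 library, a log2 change of 0.37. RPL36AL lies on chromosome 14 from 50085237 to 50087403 on the minus strand, with 160 and 202 FPKM and a log2 change of 0.33. RPL6, a large subunit protein on chromosome 12 from 112842994 to 112856642 on the minus strand, was the highest core gene, with 230 and 283 FPKM and a log2 change of 0.30. These 3 genes were higher under each scaling tried, between 0.24 and 0.56. RPS3A had 175 and 193 FPKM, RPL14 46.4 and 49.9 FPKM, RPL26 245 and 258 FPKM and RPL7 226 and 232 FPKM. Their changes, between 0.04 and 0.14, were small, and centring on the median of all genes put RPL7 below 0.

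The subunits lay close together. The 31 core genes of the small subunit summed to 7916 FPKM with shNC and 7044 FPKM with shKIAA1429, or 89.0% of the control, and the 46 core genes of the large subunit to 11105 and 9797 FPKM, or 88.2%. The median log2 change was -0.15 for the small subunit core genes, of which 29 were lower, and -0.17 for the large subunit core genes, of which 41 were lower. On the rescaled sum 13 and 20 of them were lower. Of the 4 members below -0.5, 2 belong to each subunit.

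Within the ribosome, the genes were grouped by the place and role of their proteins. Counts of these groups are to be read beside all 83 members, of which 73 were lower (35 on the rescaled sum), and beside 42.7% of all genes tested. The P stalk recruits the elongation factors. RPLP0, its anchor, had 220 FPKM with shNC and 175 FPKM with shKIAA1429, and its acidic partners RPLP1 and RPLP2 had 206 and 183 FPKM and 184 and 160 FPKM. All 3 were lower, with log2 changes of -0.33, -0.17 and -0.20, though only 2 of them on the rescaled sum. RPL5 and RPL11 carry 5S rRNA into the large subunit and, when free of ribosomes, bind and inhibit MDM2, the ubiquitin ligase of p53. RPL5 had 326 and 303 FPKM and RPL11 443 and 414 FPKM, with log2 changes of -0.11 and -0.10, which are both above the median of the members, and neither was lower on the rescaled sum. At the exit of the peptide tunnel, 5 of 7 genes were lower (2 on the rescaled sum), with a median of -0.07, and RPL39 and RPL19 had the changes of largest size, at -0.30 and -0.19. Along the mRNA path of the small subunit, all 4 genes (RPS2, RPS3, RPS15 and RPS23) were lower, 2 of them also on the rescaled sum, with a median of -0.15. RPS15, at the decoding site, had 139 and 114 FPKM, and RPS3, at the mRNA entry, had 66.2 and 56.1 FPKM. Of 18 genes mutated in Diamond-Blackfan anaemia, an inherited failure of red cell production, 16 were lower (8 on the rescaled sum) with a median of -0.14. That is 88.9%, near the 88.0% of all members. The 18 genes include RPL35A, RPS24 and RPS29. RPS19, the gene most often mutated in that disease, had 93.1 and 83.9 FPKM, a log2 change of -0.15. RPS6 had 414 and 415 FPKM, and its change of 0.00 was the nearest to 0 of all members.

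The paralogs were split in direction. Of the 6, 3 were higher and 3 were lower, with a median log2 change of -0.01, beside 70 of 77 core genes lower and a median of -0.16. On the rescaled sum 2 of the 6 paralogs and 33 of the 77 core genes were lower, with medians of 0.17 and 0.02. Most paralogs had FPKM far below those of their core gene. The longest annotated transcripts also differ in length within pairs. They have 6434 bases for RPS27L beside 359 for RPS27, and 4476 for RPL7L1 beside 1526 for RPL7. RPL39L and RPL22L1 have 756 and 2190 bases, beside 401 and 2078 for RPL39 and RPL22. RPL26L1 and RPL36AL have 742 and 746, beside 1002 and 910 for RPL26 and RPL36A. Whether length affects the ratios was not tested. RPL39L stood at 4.73 and 4.50 FPKM beside 216 and 175 FPKM for RPL39, or 2.20% and 2.57% of it. RPS27L, a known p53 target, stood at 11.2 and 9.63 FPKM, under 1% of RPS27. RPL7L1 stood at 12.2 and 12.7 FPKM, or 5.42% and 5.46% of RPL7. RPL22L1 stood at 16.6 and 14.1 FPKM, or 13.7% and 13.1% of RPL22, which itself had 121 and 108 FPKM. Of these pairs, the RPS27, RPL7 and RPL22 pairs had similar changes in paralog and core gene, with differences in log2 change between -0.05 and 0.01, and the RPL39 pair had a difference of 0.24.

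The other 2 paralogs were, like RPL39L, higher relative to their core gene in the shKIAA1429 library. RPL26L1 was 9.65% of RPL26 with shNC and 11.9% with shKIAA1429, a difference in log2 change of 0.29. RPL36AL, the only paralog above its core gene, was 118% of RPL36A with shNC and 163% with shKIAA1429, a difference in log2 change of 0.46. RPL36A itself had 136 and 124 FPKM. The plot of paralog levels shows these shifts beside the other pairs. RPL36A overlaps the read-through gene RPL36A-HNRNPH2, which had 8.29 and 21.1 FPKM, and the summed FPKM of both had a log2 change of 0.01, beside -0.13 for RPL36A alone.

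**Figure D4:**
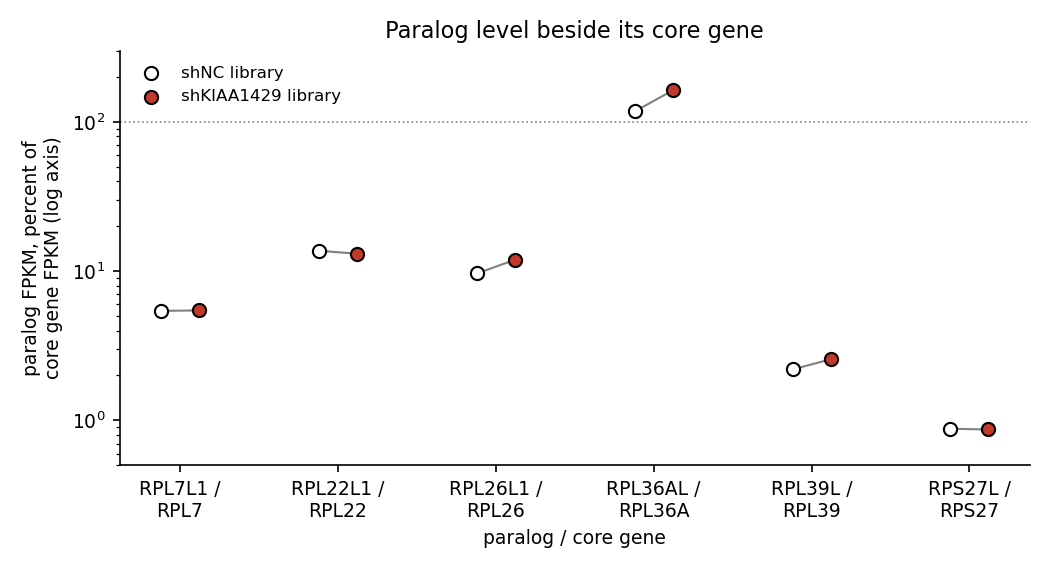
FPKM of each of 6 paralogs as a percent of the FPKM of its core gene (y axis, log scale), in the shNC library (open circles) and the shKIAA1429 library (filled circles). RPL36AL moves from 118% to 163%, RPL26L1 from 9.65% to 11.9% and RPL39L from 2.20% to 2.57%, while RPL7L1, RPL22L1 and RPS27L hardly move.

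How well reads can tell a pair apart depends on how much their sequences differ. The coding sequences of the transcripts marked as principal in GENCODE 29 were aligned from end to end. Identity was 94.8% for RPL39 and RPL39L, 89.9% for RPL36A and RPL36AL, 84.1% for RPL26 and RPL26L1, 77.8% for RPS27 and RPS27L, 66.6% for RPL22 and RPL22L1 and 55.2% for RPL7 and RPL7L1. The longest stretch shared without a difference was 60 bases in the RPL36A pair, 44 bases in the RPL39 pair and 20 bases in the RPL26 pair. How the authors' software assigned fragments that fit both genes of a pair is not given in the sources used here, so the values of these pairs are uncertain to that extent. The first 90 coding bases of RPL26 and RPL26L1 are shown, since the ratio of this pair moved, with capitals at positions where the pair differs.
RPL26: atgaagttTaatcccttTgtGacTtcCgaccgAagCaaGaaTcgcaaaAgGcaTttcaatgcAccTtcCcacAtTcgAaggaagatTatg
RPL26L1: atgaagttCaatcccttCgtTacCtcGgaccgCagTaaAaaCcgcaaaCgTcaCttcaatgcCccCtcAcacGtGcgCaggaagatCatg
In these 90 bases RPL26 and RPL26L1 differ at 19 positions, so a fragment that covers this stretch carries differences.

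Other genes overlap 8 members on the same strand, and reads in the shared part can be given to either. The partner was weak beside the member in each case, at 21.1 FPKM or less, and the library was strand-specific, so genes on the opposite strand were not considered. RPL17 had 229 and 218 FPKM beside 9.60 and 13.6 FPKM for its read-through gene RPL17-C18orf32, and RPS13 had 124 and 115 FPKM beside 10.4 and 15.1 FPKM for PIK3C2A. RPS15A had 92.7 and 85.3 FPKM beside 13.9 and 16.0 FPKM for AC138811.2. RPS10, RPL36 and RPL26 overlap RPS10-NUDT3, HSD11B1L and AC135178.2, each at 2.14 FPKM or less. Adding the partner changed the sign for RPL36A only. Without these 8 genes the median of the other 75 members was -0.16, as before, and 66 of them were lower.

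Features of the genes that the choice of members did not use were then compared with their changes. RefSeq starts were found for 67 of the 83 members, 11 of them with more than 1 annotated start. For a gene with several starts, the start with the longest run of C and T was used, which can raise the share of genes with a run. A C followed at once by at least 4 further C or T stood at an annotated start of 47 of these 67 genes, or 70.1%. It stood at a start of 7.76% of 8457 genes tested, and of 4.07% of all 35116 starts in the table. The longest run, of 19 bases, was that of RPL39. The 47 members with the run had a median log2 change of -0.17, with 42 lower, and the 20 without it had a median of -0.15, with 16 lower. The 16 members for which no start was found had a median of -0.11, with 15 lower. Among genes other than the members, 609 with the run had a median of -0.03, and 7781 without it had a median of 0.07. Members with and without the run therefore lay close together, and other genes with the run lay between the members and the genes without it. Of short motifs searched on both strands of the 300 bases around each start, CCGGAAG, a core of ETS factor sites, stood in 24 of 67 members (35.8%, beside 23.7% of genes tested and 10.3% of all starts). The E-box CACGTG stood in 5 (7.46%, beside 13.3% and 7.26%), and TATAAA in 6 (8.96%, beside 7.64% and 11.5%).

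Introns of ribosomal protein genes are known to host small nucleolar RNAs, which guide the modification of rRNA. In GENCODE 29, 28 of the 83 members hold 60 such genes on their own strand, or 33.7% of members beside 1.97% of genes tested. Their median log2 change was -0.16, as was that of the 55 members without one. The members lie on 21 chromosomes, with 12 of them on chromosome 19. The longest annotated coding transcript had a median length of 1171 bases, beside 3368 bases for all genes tested, and a median GC content of 48.7%, beside 48.5%.

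The wider translation machinery was compared through lists of genes with known roles. Ribosomal proteins and partners that carry other names were not matched by the rule. FAU, whose product is split into a ubiquitin-like protein and a small subunit protein, had 54.5 and 48.4 FPKM. RACK1, a scaffold on the small subunit, had 79.6 and 75.4 FPKM. Both were lower, with log2 changes of -0.17 and -0.08, and neither on the rescaled sum. Proteins of the mitochondrial ribosome, encoded in the nucleus, did not show a common direction on the deposited scale. Of 78 genes, 42 were lower, with a median of -0.02. On the rescaled sum, where 25.4% of all genes tested were lower, 23 of these 78 genes were, with a median of 0.16. Their lowest changes were those of MRPL16, from 10.1 to 6.49 FPKM, and MRPS26, from 19.1 to 12.8 FPKM.

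Among other mRNAs known to begin with a TOP tract, the changes were spread more widely than among the members, with 15 of 18 lower (10 on the rescaled sum), 5 of them below -0.5, a median of -0.25 and an interquartile range of -0.53 to -0.05. EIF4B, which assists the helicase of translation initiation, had 269 FPKM with shNC and 113 FPKM with shKIAA1429, a log2 change of -1.24. PABPC1, which coats poly(A) tails, had 268 and 164 FPKM, a log2 change of -0.70. Regulators of these mRNAs and of the mTOR pathway passed the expression filter for 11 of 12 genes, with 7 higher and a median of 0.08. On the rescaled sum 2 of the 11 were lower. RPS6KA3, an S6 kinase of the RSK family, had the largest change of these, from 5.01 to 7.71 FPKM, and LARP4 followed, from 8.35 to 10.8 FPKM. Of 30 translation factors, 5 of which are also among the 18 other TOP mRNAs, 15 were lower and 15 higher, with a median of -0.01. On the rescaled sum 6 of the 30 were lower, with a median of 0.18. EIF5, which triggers GTP hydrolysis at the start codon, was the only one past 1.5, from 5.39 to 18.9 FPKM, and EEF1A1, which brings aminoacyl-tRNA to the ribosome, went from 992 to 625 FPKM.

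Genes that build ribosomes lay close to all genes tested, with 17 of 30 higher and a median of 0.07. On the rescaled sum 5 of the 30 were lower, with a median of 0.25, beside 0.24 for all genes tested. UBTF, which activates transcription of rRNA genes, went from 26.5 to 15.5 FPKM, and WDR43, of the complex that processes the small subunit precursor, from 27.4 to 45.5 FPKM. Of 9 chaperones and importers dedicated to ribosomal proteins, 5 were lower (2 on the rescaled sum) with a median of -0.09, and the largest changes were upwards. LTV1, which assists late assembly of the small subunit, went from 15.5 to 24.6 FPKM, and TSR2, the chaperone of RPS26, from 12.3 to 18.5 FPKM, while RPS26 itself went from 320 to 273 FPKM. MYC, a transcription factor known to raise expression of ribosomal and biogenesis genes, went from 28.5 to 4.53 FPKM. In the p53 pathway that RPL5 and RPL11 act on, MDM2 went from 15.7 to 36.0 FPKM and MDM4 from 3.44 to 0.913 FPKM, with 3 of 4 genes higher. The plot of gene lists sets these medians beside that of the members.

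**Figure D5:**
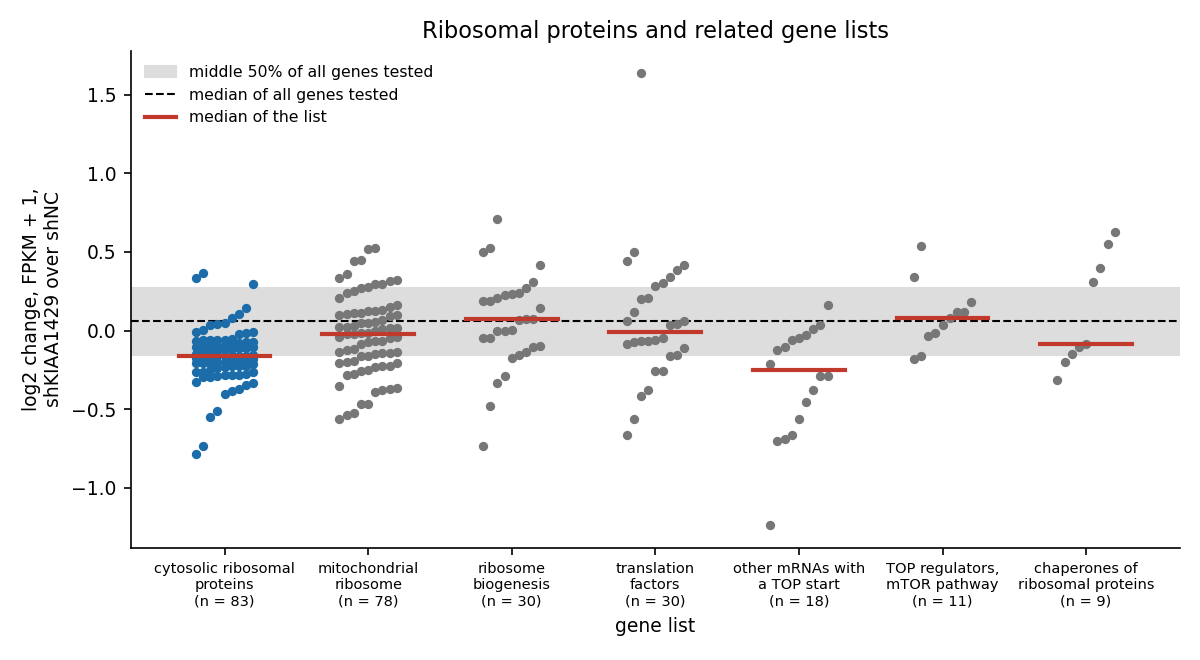
Log2 change of single genes (points, y axis) in the ribosomal protein genes and in 6 related lists (x axis), with the median of each list (red line), the median of all genes tested (dashed) and their interquartile range (grey band). The ribosomal proteins (median -0.16) and the other mRNAs with a TOP start (median -0.25) have the lowest medians, and the other lists have medians between -0.09 and 0.08.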

How the data were processed

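RNA-seq of 2 ACHN libraries was analysed (1 shKIAA1429, 1 shNC). Libraries were poly(A)-selected, strand-specific and read from both ends. The authors deposited FPKM values per gene. The submitters' processing notes name cutadapt 1.9, HISAT2 2.0.4, StringTie 1.3.4d, DESeq2 and edgeR, without their roles. The build is not given in the sources used here, and the gene identifiers and positions have the form of GENCODE genes on GRCh37. The files hold protein-coding genes above 0.5 FPKM in at least 1 library. FPKM keeps no read count, so depth is unknown, and counting intervals were not computed.

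The log2 of (FPKM + 1) ratios was computed for genes with a mean of at least 1 FPKM. For 7 symbols that stand on several rows, the most abundant row was kept. The limits were 1.5 and 0.5. Transcript length, GC content, coding sequences and small nucleolar RNA genes came from GENCODE 29, and starts from RefSeq (GRCh38.p14). Length and GC content were found for 99.5% of genes. Members named are the 10 most abundant, the 8 highest and 8 lowest changes, those past 0.5, the stalk, 5S and paralog lists, members that overlap another gene with their partners, RPS6 and RPS19. VIRMA and MYC were also named, with the 2 largest changes of each other list. RPS23, RPS26, RPS28 and RACK1 stand outside that rule and were added after their values were seen. The members and lists were chosen with earlier results of these data known. Some genes and sequences are not reported here. Scripts were tested on simulated data. The tools were Biopython 1.88, matplotlib 3.10.9, SciPy 1.17.1, pandas 2.3.3, NumPy 2.4.6 and Python 3.11.15.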

Additional observations from a re-analysis of the deposited data

How the results depend on the processing

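With 1 library per group, differences between these libraries may be those of single cultures. No paired analysis was possible because each condition has a single library. With each library rescaled to a sum of 1000000, the median log2 change became 0.018 for all members, 0.025 for the small subunit and 0.016 for the large subunit. Of the members, 48 were then higher and 35 lower, where 25.4% of all genes tested were lower. The summed level became 101% of the control. Centring on the median of all genes left 6 genes higher, and removing the GC content and length trend gave 23. At a limit of 0.5, 4 genes were lower. At a limit of 1, 0 genes were past it in either direction. The medians and counts of the members moved by at most 0.1 and by at most 1.5 times with a pseudocount of 0.1, rescaling without mitochondrial genes, summing rows of a symbol, no filter, a mean of at least 5 FPKM, and leaving out overlapping members or paralogs. The summed level, recomputed without mitochondrial genes in the scaling, without overlapping members and without the 5 most abundant members, stayed between 88.8% and 89.4% of the control. Of 258 values for 43 named members under 6 alternatives, 62 moved by more than 0.1 and 22 changed sign, 15 of them on the rescaled sum. The cause was not tested.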

Other observations

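RPS6KL1, a kinase-like gene whose symbol meets the letters of the pattern, was listed at 0.569 FPKM with shNC and 0.354 FPKM with shKIAA1429 and entered no count of ribosomal protein genes. The 20 most abundant members and the other 63 had the same median log2 change, at -0.16, with 19 and 54 genes lower. Across the 83 members, the Spearman correlation of mean level with change was -0.03.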
